A study of Mus musculus with 9 samples.

Results

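Cytochrome c oxidase, complex IV of the mitochondrial respiratory chain, passes electrons from cytochrome c to oxygen and pumps protons. Its catalytic core is encoded by mitochondrial DNA, and the surrounding subunits are encoded in the nucleus. Subunits VIa, VIIa and VIII each exist in a form restricted mainly to heart and skeletal muscle (Cox6a2, Cox7a1, Cox8b) and a broadly expressed form (Cox6a1, Cox7a2, Cox8a). Subunit IV has a broad form (Cox4i1) and a form known from lung and from low oxygen (Cox4i2), and Cox7a2l encodes a relative of subunit VIIa that joins complexes III and IV into supercomplexes. The 9 genes described here were chosen by name as these isoforms, from 19938 genes that had a probe set of their own on the array. All 9 had one, and all 9 passed the filter on low values that left 16582 genes for testing.

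RNA came from primary skeletal muscle myoblasts (wild type, Balb/c) and was hybridised to 9 Affymetrix arrays. There were 3 arrays of cycling myoblasts (0 days), 3 of myotubes after 2 days and 3 of myotubes after 5 days in differentiating medium. The growth protocol of all samples names the same medium, Ham's F10 with 20% serum and bFGF at 4 ng/ml, so the differentiating medium is known from the titles only. The labels do not say whether the replicates were separate cultures or animals. Values are log2 expression values from RMA, which corrects background, equalises distributions across arrays and condenses several probes into 1 value per probe set. Arrays of different time points had not been brought to one scale before deposit. Each change is therefore given first as deposited and then on a common scale, on which all 9 arrays were quantile-normalised to one distribution. The deposited replicates are often identical, so p-values and standard errors are smaller than a spread between cultures would give, and sizes are given first. A limma standard error also shares its estimate of the spread over all 3 time points. In all, limma called 93.3%, 95.2% and 94% of the 16582 genes at any size as deposited at day 2, at day 5 and between them, and 91.4%, 94.5% and 90.5% on the common scale. "Rose" and "fell" are used below for a limma adjusted p under 0.05 and at least a 2-fold change on both scales, and "called higher" or "called lower" for the same test on both scales at any size. Standard errors and p-values are those of the deposited scale unless stated.

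Marker levels on the arrays bear on all that follows. All 6 myogenic markers listed for these cells (Myod1, Myog, Des, Myh3, Acta1, Ckm) lay above the array median in every group, and their summed log2 values ranged from 55.97 to 57.28 in cycling myoblasts, 68.49 to 68.50 at day 2 and 64.69 to 64.80 at day 5. Against cycling myoblasts Myod1, the myoblast determination factor, alone of the 6 was called lower at day 2 (-0.96 and -0.93) and fell by day 5 (-2.04 and -1.43). From day 2 to day 5 Myod1 (-1.09 and -0.50), Myog (-1.36 and -0.80), Myh3 (-1.16 and -0.74) and Acta1 (-0.36 and -0.16) were called lower. Ckm was called higher (0.33 and 0.68), and for Des the scales differed in direction (-0.14 and 0.21). Cox7a1 and Cox8b are also known from brown fat, so 5 adipocyte markers were read out. Their summed values were 17.80 to 17.98, 20.01 and 18.46 to 18.77 in the same order, 1, 2 and 2 of 5 lay above the array median, and Ucp1, which defines brown fat, lay under it at 3.63, 3.80 and 3.66. Of those 5, Cidea, a lipid droplet protein, rose, with log2 fold changes of 1.40 and 1.31 at day 2. Of 4 cardiac markers 1, 2 and 2 lay above the array median in the same order, of 4 fibroblast markers 1, 1 and 2, and of 3 smooth muscle markers 1, 1 and 2. The array median itself became lower, at 4.34, 4.26 and 3.98. Summed values were 17.07 to 17.31, 17.41 to 17.47 and 15.97 for the cardiac markers. They were 17.75 to 17.79, 14.63 and 13.83 to 14.22 for the fibroblast markers, and 14.20 to 14.28, 13.88 and 13.58 to 13.60 for the smooth muscle markers. The endothelial and the macrophage markers lay above the array median in 0 of 3 and 0 of 3 cases at each time. Of the 4 fibroblast markers 2 were tested. The collagen Col3a1 fell, with log2 fold changes of -2.87 and -2.67 at day 2 and -4.15 and -3.41 at day 5. The receptor Pdgfra was called lower at day 2 (-0.62 and -0.62), and higher at day 5 against cycling myoblasts (0.070 and 0.56) and from day 2 to day 5 (0.69 and 1.19). The part of these cells in the results below was not tested. In a bulk sample a changed share of cells and changed RNA per cell cannot be told apart.

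The sequences just upstream of 4 of these genes are shown because Cox7a1 and Cox8b carried large rises and Cox6a1 and Cox8a were lower by day 5. They are the 250 bases before the RefSeq start of each gene in GRCm38.p6, at chr7:30183921-30184170 (plus strand), chr7:140900447-140900696 (minus strand), chr5:115348959-115349208 (minus strand) and chr19:7217617-7217866 (minus strand), written 5′ to 3′ on the gene's strand. Capitals mark matches to the motifs searched other than the loose E-box.
Cox7a1: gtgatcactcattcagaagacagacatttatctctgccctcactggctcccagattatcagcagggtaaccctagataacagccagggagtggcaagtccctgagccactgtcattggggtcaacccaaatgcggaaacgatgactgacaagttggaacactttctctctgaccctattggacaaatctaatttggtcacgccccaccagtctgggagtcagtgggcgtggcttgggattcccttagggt
Cox8b: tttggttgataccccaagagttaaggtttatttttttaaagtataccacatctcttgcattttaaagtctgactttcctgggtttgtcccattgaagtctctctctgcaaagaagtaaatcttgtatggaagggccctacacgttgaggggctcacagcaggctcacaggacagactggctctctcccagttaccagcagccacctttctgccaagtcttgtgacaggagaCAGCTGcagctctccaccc
Cox6a1: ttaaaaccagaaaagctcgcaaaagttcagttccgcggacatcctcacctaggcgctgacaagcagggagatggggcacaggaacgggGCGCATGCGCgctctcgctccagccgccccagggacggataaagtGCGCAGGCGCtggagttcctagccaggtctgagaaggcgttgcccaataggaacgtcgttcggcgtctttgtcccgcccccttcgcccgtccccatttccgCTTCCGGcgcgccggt
Cox8a: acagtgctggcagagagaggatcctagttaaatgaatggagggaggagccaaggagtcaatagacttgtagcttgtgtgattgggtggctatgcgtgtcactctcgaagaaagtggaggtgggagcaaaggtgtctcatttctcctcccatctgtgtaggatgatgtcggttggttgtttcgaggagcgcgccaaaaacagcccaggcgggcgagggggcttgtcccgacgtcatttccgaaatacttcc

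RefSeq upstream sequences were matched by symbol for 6 of the 9 genes, and Cox6a2, Cox4i1 and Cox4i2 were not among them. Both strands were searched for 8 motifs, and the share of all 32851 upstream windows of this length with a match is given for each. These were CAGCTG (13%), the E-box form favoured by myogenic factors, which is one case of the loose E-box CANNTG (66.2%), CTA and TAG with any 4 bases between them for MEF2 (3.2%), GCGCA and GCGC with any 1 base between them for NRF-1 (3.74%), CCGGAAG for ETS factors (6.91%), TNAAGGTCA for ERR (1.14%), CATTCC for TEAD factors (12.6%) and the TATA letters TATAAA (12.4%). Cox8b held CAGCTG from base -19 to -14, counted from the start. Cox6a1 held the NRF-1 letters from -162 to -153 and from -117 to -108, and the ETS letters on the opposite strand from -16 to -10. Cox7a1, Cox8a, Cox7a2 and Cox7a2l matched the loose E-box alone, once each. The GC content of the window was 51.2% for Cox7a1, 47.2% for Cox8b, 62.8% for Cox6a1 and 52.8% for Cox8a, against a median of 52.4% over all windows. These matches describe letters and not bound sites.

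The muscle forms of all 3 subunits that have one rose strongly once the cells differentiated. Cox6a2, Cox7a1 and Cox8b each rose at least 9.3-fold as deposited at day 2 and at day 5, whereas no other isoform reached 2-fold on both scales at either time. Thus 3 of 9 members rose and 0 fell at day 2, where 6.04% of all genes rose and 8.41% fell, and 3 of 9 rose and 0 fell at day 5, where 4.44% rose and 12.3% fell. Between day 2 and day 5 Cox7a1 alone of the 9 rose, against 0.766% of all genes, and 0 fell, against 3.67%.

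Cox8b (probe set 10569008), the muscle form of subunit VIII, read 6.13, 6.45 and 6.45 in cycling myoblasts, 10.50, 10.48 and 10.50 at day 2 and 10.61, 10.57 and 10.64 at day 5. The cycling arrays were the low ones, replicate 1 lowest, and did not overlap with the later ones. The log2 fold change was 4.15 ± 0.087 (SE) as deposited and 4.44 on the common scale at day 2 (limma adjusted p = 4.89e-09), and 4.26 and 5.01 at day 5 (limma adjusted p = 3.61e-09). These are 17.7-fold and 19.2-fold as deposited. At day 2 it was the gene with rank 17 among all 16582 by fold change as deposited. From day 2 to day 5 the change was 0.12 ± 0.087 (SE) as deposited, which did not pass (limma adjusted p = 0.229), and 0.56 on the common scale, which did (limma adjusted p = 0.000157). Without replicate 1 of the cycling myoblasts, which shares in the estimate of the spread, the same 0.12 passed (limma adjusted p = 0.00124).

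Cox6a2 (probe set 10568369), the muscle form of subunit VIa, read 5.96 on all 3 cycling arrays, 9.80 on all 3 at day 2 and 9.76, 9.68 and 9.73 at day 5. Day 2 and day 5 lay close together and far above cycling myoblasts. The log2 fold change was 3.84 ± 0.017 (SE) and 4.11 at day 2 (limma adjusted p = 3.87e-13) and 3.76 and 4.61 at day 5 (limma adjusted p = 4.17e-13). Between the later time points its direction depended on the scale, at -0.083 before and 0.50 after common normalization. Its rank by fold change was 31 at both times as deposited.

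Cox7a1 (probe set 10551836), the muscle form of subunit VIIa, had a later course than the other muscle forms. It read 5.41 on all 3 cycling arrays, 8.63 on all 3 at day 2 and 9.81, 9.81 and 9.84 at day 5. Each time point lay wholly above the one before. Its log2 fold change was 3.22 ± 0.0074 (SE) and 3.39 at day 2 (limma adjusted p = 5.94e-15), 4.41 and 5.20 at day 5 (limma adjusted p = 8.13e-16), and 1.19 and 1.81 from day 2 to day 5 (limma adjusted p = 2.88e-12). Its rank by fold change as deposited went from 72 at day 2 to 18 at day 5, and from day 2 to day 5 it ranked 90.

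**Figure D1:**
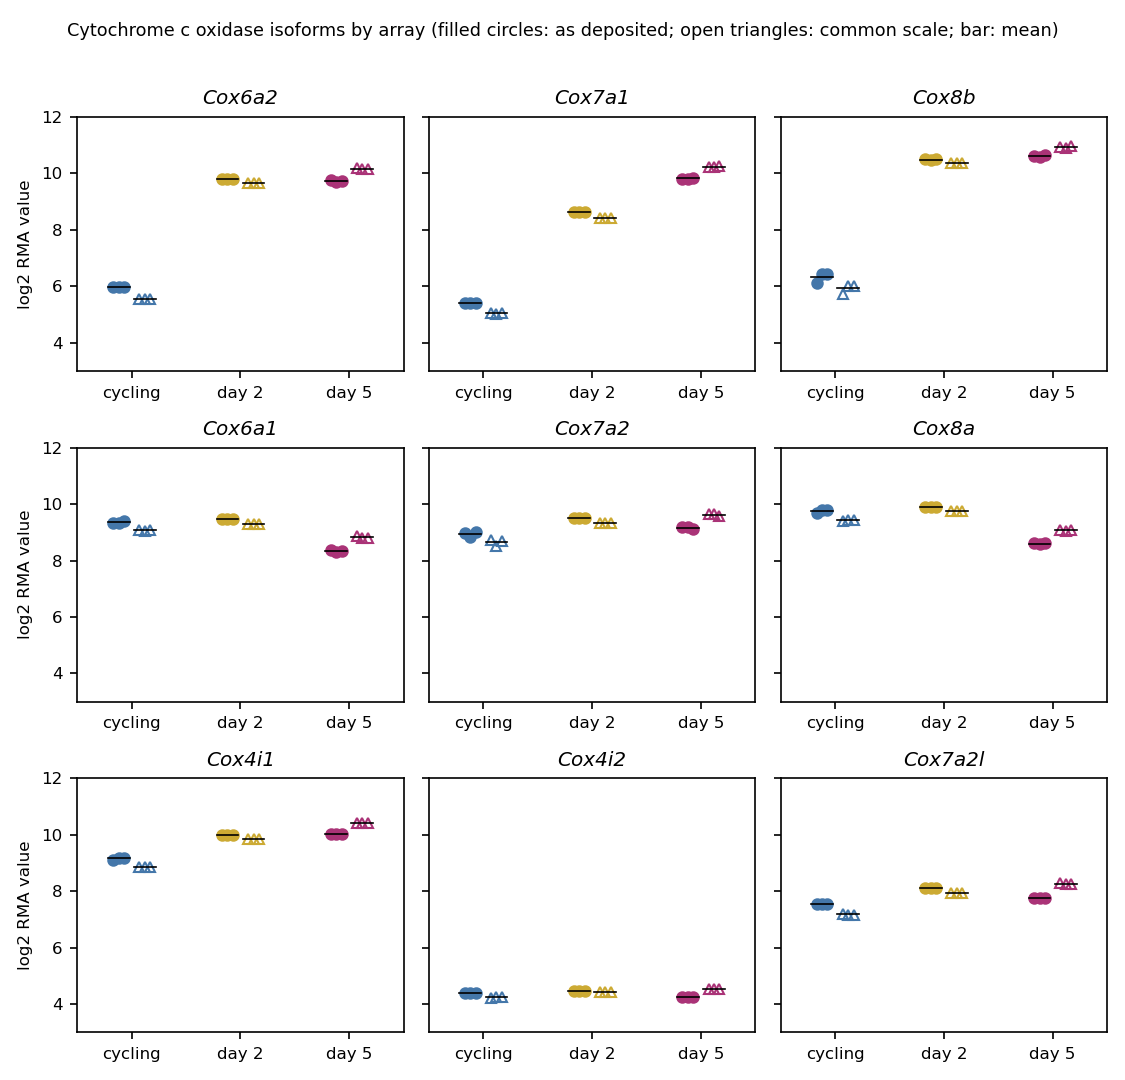
Log2 RMA value of each of the 9 isoform genes on each of 9 arrays, by time point, with filled circles for deposited values, open triangles for the common scale and a bar for the mean of 3 arrays. Cox6a2, Cox7a1 and Cox8b lie at 5.41 to 6.34 on average in cycling myoblasts as deposited and at 8.63 to 10.61 later, while the other 6 genes move far less.

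The broad forms of the same 3 subunits did not rise. Cox6a1 and Cox8a were nearly level at day 2 and lower at day 5, whereas Cox7a2 was moderately higher at both times. Of the 4 broad forms, Cox4i1 included, 4 were called higher at day 2 (42.8% of all genes were) and 0 lower (37.4%), and at day 5 2 were called higher (29.7%) and 2 lower (38.1%). Their median log2 fold change was 0.36 and 0.51 at day 2 and -0.40 and 0.36 at day 5, beside -0.014 and 0.087, then -0.37 and 0.17, over all genes tested.

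Cox8a (probe set 10465633), the broad form of subunit VIII, read 9.68, 9.78 and 9.78 in cycling myoblasts, 9.90 on all 3 arrays at day 2 and 8.61, 8.57 and 8.61 at day 5. Day 5 was the low time point and overlapped with neither of the others. The log2 fold change was 0.15 ± 0.029 (SE) and 0.34 at day 2 (limma adjusted p = 0.00171), -1.15 and -0.36 at day 5 (limma adjusted p = 1.3e-08), and -1.30 and -0.70 from day 2 to day 5 (limma adjusted p = 6.89e-09). The direction held on both scales and the 2-fold size only as deposited.

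Cox6a1 (probe set 10532993), the broad form of subunit VIa, followed the same course. It read 9.34, 9.35 and 9.40 in cycling myoblasts, 9.47 on all 3 arrays at day 2 and 8.38, 8.31 and 8.33 at day 5. Against cycling myoblasts the log2 fold change was 0.11 ± 0.021 (SE) and 0.21 at day 2 (limma adjusted p = 0.00202), -1.02 and -0.25 at day 5 (limma adjusted p = 3.71e-09), and -1.13 and -0.46 from day 2 to day 5 (limma adjusted p = 2.31e-09). Cox6a1 and Cox8a were the 2 of 9 members called lower from day 2 to day 5, where 40.6% of all genes were called lower.

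Cox7a2 (probe set 10595280), the broad form of subunit VIIa, read 8.99, 8.83 and 9.00 in cycling myoblasts, 9.51 on all 3 arrays at day 2 and 9.19, 9.19 and 9.12 at day 5. It was highest at day 2 as deposited and at day 5 on the common scale. Its change on the log2 scale was 0.57 ± 0.047 (SE) and 0.69 at day 2 (limma adjusted p = 1.58e-05) and 0.23 and 0.98 at day 5 (limma adjusted p = 0.00269). From day 2 to day 5 it was -0.35 on the deposited scale but 0.29 on the common one, so no direction is given.

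Cox4i1 (probe set 10576029), the broad form of subunit IV, was the member other than the muscle forms with the largest increase over cycling myoblasts on both scales. It read 9.12, 9.19 and 9.19 in cycling myoblasts, 9.99 on all 3 arrays at day 2 and 10.01 on all 3 at day 5. The log2 fold change was 0.83 ± 0.018 (SE) and 0.99 at day 2 (limma adjusted p = 6.01e-09) and 0.85 and 1.54 at day 5 (limma adjusted p = 4.51e-09), so it passed 2-fold on the common scale alone and only at day 5. The change from day 2 to day 5, 0.021 ± 0.018 (SE), did not pass as deposited (limma adjusted p = 0.287) and was 0.55 on the common scale (limma adjusted p = 1.56e-11). It passed as deposited without replicate 1 of the cycling myoblasts (limma adjusted p = 1.56e-16), at the same size. The values left were then identical within each time point, so that p-value measures no spread between cultures.

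Cox4i2 (probe set 10477179), the form of subunit IV known from lung, stayed near the middle of the array. It read 4.40 on all 3 cycling arrays, 4.48 on all 3 at day 2 and 4.25 on all 3 at day 5, which placed it between the 50.80th and the 55.61st percentile of its array. Background was not measured in these values, so a level of this size is not shown to lie above it. Its log2 fold change was 0.083 and 0.18 at day 2, and -0.15 and 0.31 at day 5, where the scales differ in direction.

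Cox7a2l, the supercomplex factor, was moderately higher at both times. Its brighter probe set (10399677) read 7.57, 8.10 and 7.77 in the 3 time points, the same on all 3 arrays of each. The log2 fold change was 0.54 and 0.75 at day 2 and 0.21 and 1.09 at day 5, and -0.33 and 0.34 from day 2 to day 5, where the scales differ in direction. Its other probe set (10453254) took the same course as deposited, at 6.90, 7.04 and 7.02 in cycling myoblasts, 7.51 on all 3 arrays at day 2 and 7.15 on all 3 at day 5. The remaining 8 genes had 1 probe set each. Whether any of these probes also capture near-identical gene copies was not tested.

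**Figure D2:**
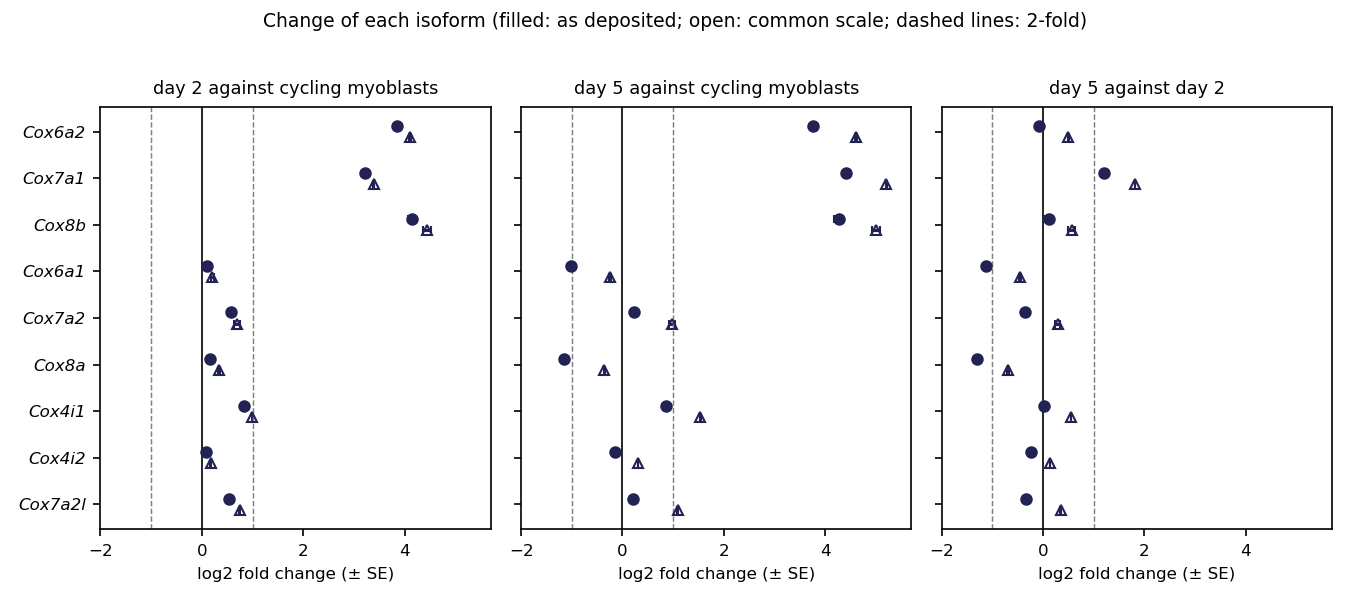
Log2 fold change with its standard error for each isoform in the 3 comparisons, filled as deposited and open on the common scale, with dashed lines at 2-fold. The standard errors are smaller than a spread between cultures would give. Cox6a2, Cox7a1 and Cox8b stand beyond 3 on the log2 scale against cycling myoblasts, and for Cox6a2, Cox7a2, Cox7a2l and Cox4i2 the filled and open symbols lie on opposite sides of 0 between day 2 and day 5.

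All 27 comparisons of a member between time points had groups that did not overlap as deposited. So did 95.8%, 96.5% and 97.1% of all genes at day 2, at day 5 and between them, so a lack of overlap says nothing particular about these genes. With groups that do not overlap, leaving out any 1 array as deposited could not turn the direction of any of the 27 changes.

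The balance within each subunit was compared by taking, on each array, the log2 value of the muscle form minus that of the broad form. A shift of a whole array cancels in this difference, which shows unequal change and not which form is more abundant. The difference grew by day 2 and again by day 5 for subunits VIa, VIIa and VIII, on every array of the later time point. The signed value of Cox4i2 minus Cox4i1 became lower at both times on both scales, and no size is given for it because Cox4i2 is not shown to lie above background. For 4 pairs and 3 comparisons, 12 two-sided exact permutation tests over 3 against 3 arrays each gave p = 0.1, the smallest this design allows, and 0.1 after Benjamini-Hochberg adjustment, so none could pass 0.05.

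For subunit VIII the difference changed by 3.99 ± 0.074 (SE, n = 3 and 3) at day 2, or 15.9-fold, and by 5.41 ± 0.074 at day 5, or 42.6-fold. Subunit VIa changed by 3.73 ± 0.018 at day 2 and 4.78 ± 0.020 at day 5, or 13.3-fold and 27.4-fold. Subunit VIIa changed by 2.65 ± 0.054 and 4.19 ± 0.063, or 6.26-fold and 18.2-fold. The shift had its largest value for VIII at both times, and differences between subunits were not tested.

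From day 2 to day 5 the difference changed by a further 1.54 ± 0.033 (SE) for subunit VIIa, 1.42 ± 0.012 for VIII and 1.05 ± 0.0098 for VIa. On the common scale the steps were 1.53, 1.26 and 0.96. For VIIa the muscle form rose (Cox7a1, 1.19 and 1.81). For VIa and VIII the broad form was called lower (Cox6a1, -1.13 and -0.46, and Cox8a, -1.30 and -0.70), while the muscle form's part in the step depended on the scale. As deposited the log2 fold change was -0.083 for Cox6a2 and 0.12 for Cox8b, which did not pass. On the common scale it was 0.50 and 0.56, close in size to those of the broad forms.

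**Figure D3:**
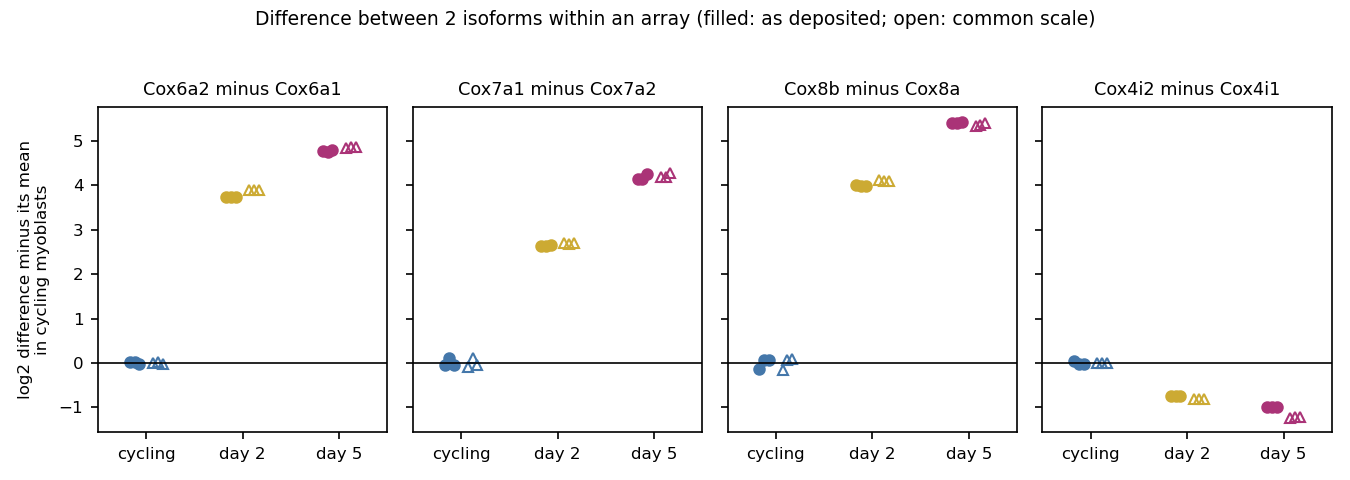
Log2 difference between the 2 isoforms of a subunit within an array, shown relative to its mean in cycling myoblasts, for each of 9 arrays, filled as deposited and open on the common scale. The difference for Cox8b minus Cox8a lies near 4.00 at day 2 and 5.41 at day 5, and filled and open symbols nearly coincide.

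The nuclear subunits that have no muscle form were mostly moderately higher than in cycling myoblasts. Among all genes 42.8% were called higher, 37.4% were called lower and 6.04% rose at day 2, and 29.7%, 38.1% and 4.44% at day 5. Of 7 such subunits listed, 6 had a probe set naming them alone, and 5 of 6 were called higher at day 2 and at day 5, 0 rose and 0 were called lower. These were Cox5a (log2 fold change 0.63 and 0.77 at day 2, 0.32 and 1.05 at day 5), which with Cox5b (0.84 and 1.03, then 0.67 and 1.28) lies near the core, Cox6b1 (0.61 and 0.74, then 0.24 and 0.99), Cox6c (0.34 and 0.50, then 0.58 and 1.11) and Cox7b (0.79 and 0.95, then 0.50 and 1.20). Ndufa4, a loosely bound subunit first assigned to complex I, did not pass as deposited at either time (0.17 and 0.25, then 0.063 and 0.52). On the common scale it passed at both (limma adjusted p = 0.00686 and 9.04e-05). The median of the 6 was 0.62 and 0.76 at day 2 and 0.41 and 1.08 at day 5. That of the 3 muscle forms was 3.84 and 4.11, then 4.26 and 5.01. Over all genes tested the median was -0.014 and 0.087, then -0.37 and 0.17. From day 2 to day 5 Cox6c (0.24 and 0.60) was called higher, as were 16.2% of all genes, and 0 were called lower (40.6%). The median of the 6 was then -0.23 and 0.26, so its direction depended on the scale, beside -0.40 and 0.055 over all genes. Cox7c and the mitochondrially encoded subunits were not analysed here.

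Of the other tissue forms, Cox6b2, known from testis, fell. It read 7.22, 7.28 and 7.42 in cycling myoblasts, 4.59, 4.59 and 4.66 at day 2 and 4.22 on all 3 arrays at day 5. The later arrays lay far under the cycling ones. Its log2 fold change was -2.70 ± 0.051 (SE) and -2.34 at day 2 (limma adjusted p = 2.67e-09) and -3.08 and -2.39 at day 5 (limma adjusted p = 1.04e-09), while its broad counterpart Cox6b1 was called higher. Cox8c (3.99 on average in cycling myoblasts, 4.46 at day 2) was called higher at day 2 (0.47 and 0.50) and lower from day 2 to day 5 (-0.65 and -0.40), and at day 5 against cycling myoblasts the scales differed in direction (-0.18 and 0.11). Cox7b2 and Cyct did not pass the filter on low values. Cycs, cytochrome c itself, was called higher by 0.43 and 0.63 at day 2 and 0.13 and 0.83 at day 5.

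Of 28 genes listed as assembly factors, among them those that insert haem and copper, 24 were tested. At day 2 20 of 24 were called higher, 2 of them rose, and 1 was called lower. The 2 that rose were Cox14 (1.06 and 1.22), which acts on the newly made subunit I, and Cox19 (1.11 and 1.35), of the copper pathway. Cox18 (-0.30 and -0.16), which inserts subunit II into the membrane, was called lower. At day 5 10 of 24 were called higher, 0 rose and 0 were called lower, with a median of -0.11 and, on the common scale, 0.86. From day 2 to day 5 Taco1 (0.10 and 0.78) and Cmc1 (0.23 and 0.92) were called higher, and Sco1 (-0.79 and -0.052), Cox15 (-1.12 and -0.39), Cox19 (-0.77 and -0.040), Coa4 (-0.62 and -0.061) and Lrpprc (-0.96 and -0.27) lower. Among all genes 42.8% were called higher and 37.4% lower at day 2, where 6.04% rose, 29.7% higher and 38.1% lower at day 5, and 16.2% higher and 40.6% lower from day 2 to day 5.

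**Figure D4:**
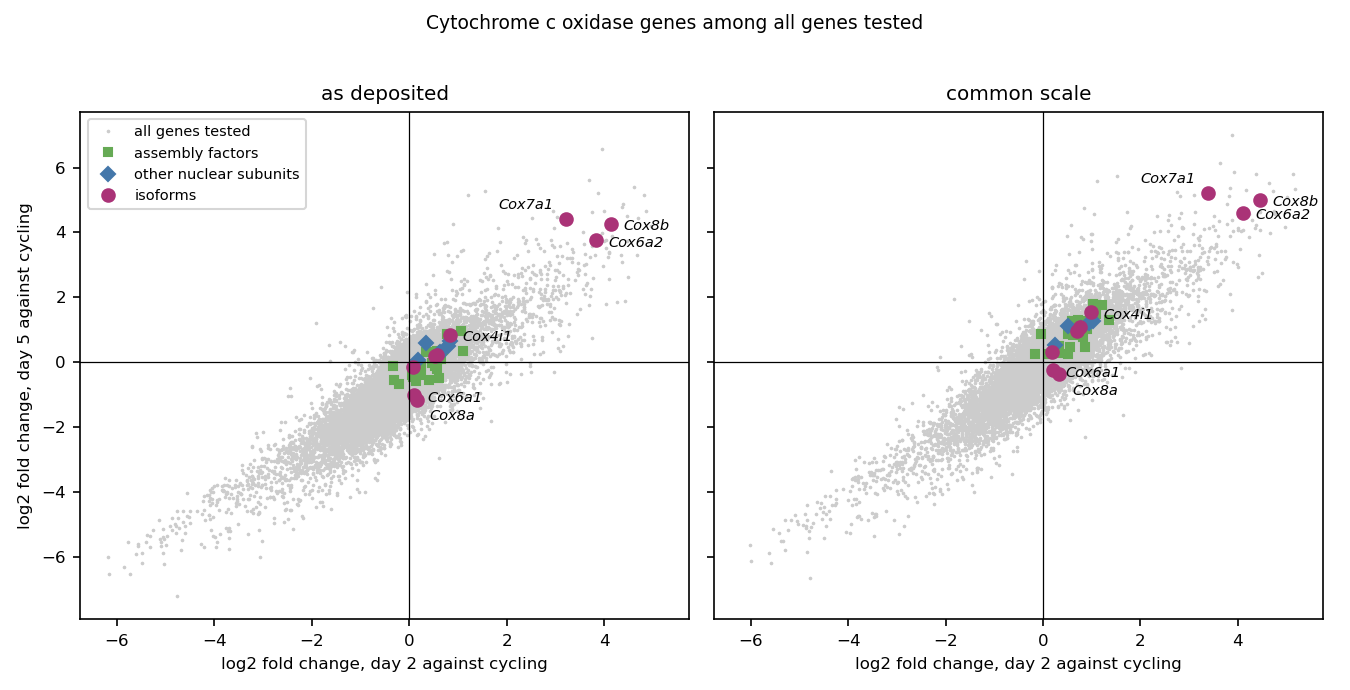
Log2 fold change at day 5 against that at day 2, both against cycling myoblasts, for all 16582 genes tested (grey), assembly factors, other nuclear subunits and the isoforms, as deposited and on the common scale. Cox6a2, Cox7a1 and Cox8b lie in the upper right, apart from the other cytochrome c oxidase genes, and Cox6a1 and Cox8a lie under 0 at day 5 on both scales; both axes share the cycling arrays.

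The genes whose course was most like that of each muscle form were found by the distance between their log2 fold changes at day 2 and day 5, over 3 time points, as deposited. Nearest to Cox6a2 were Ppp1r3a (distance 0.15), a glycogen-targeting phosphatase subunit of muscle, the alpha-actinin Actn2 (0.20) and Asb2 (0.20), a ubiquitin ligase adaptor. Nearest to Cox7a1 were the myogenic factor Myf6 (0.19), the fatty acid desaturase Scd1 (0.36) and the kinase Prkcq (0.36). Nearest to Cox8b were the calcium pump Atp2a1 (0.35), the fast troponin C Tnnc2 (0.37) and the fatty acid binding protein Fabp3 (0.40). Of the 20 nearest genes, 18 for Cox6a2, 14 for Cox7a1 and 17 for Cox8b were among the 20 nearest on the common scale as well.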

How the data were processed

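The members and lists were chosen with earlier results of these data known. The authors deposited log2 values made with RMA, per the submitters' processing notes, run for each replicate set, per the design text. Its version is not stated in those sources. Sorted values of 2 arrays differed by at most 0.0251 on average within a time point and by at least 0.188 between time points, so the set was the time point, and normalization and time cannot be told apart. On all 3 arrays of a time point 47.9% to 60.2% of the 35556 probe sets had the same deposited log2 value (tolerance 1e-06). Array medians were 4.34, 4.26 and 3.98.

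Of the probe sets, 21789 carried 1 gene name in the platform annotation, 1621 several and 12146 none. Entrez identifiers of 21698 matched RefSeq (GRCm38.p6, names only), with 0 symbols changed. The brightest probe set stood for a gene. Genes above the 30th percentile of their array on at least 3 arrays were tested. With limma 3.58.1 (lmFit, eBayes, R 4.3.3), 1 mean per time point was fitted, with Benjamini-Hochberg adjustment over 16582 genes. The script was tested on simulated data with independent noise of the same spread in every gene. The deposited replicates are often identical instead, so that test does not measure the rate of false calls here. The common scale is limma's normalizeQuantiles over all arrays. Isoform differences were tested with scipy 1.17.1. Genes named were the members, the 3 genes nearest to each member that rose or fell, all other nuclear subunits, and genes of the other lists that rose or fell; Pdgfra, Cox8c, Cycs and the assembly factors called between day 2 and day 5, or lower at day 2, were named after their values were seen. Alternatives were the common scale, median centring, no filter, trend and robust eBayes, the replicate number as a block, fits of 6 arrays, the mean of a gene's probe sets, and leaving out each array. Same-numbered arrays of different time points did not deviate together (correlation of deviations from -0.0038 to 0.0405), so the numbers were not taken as pairs.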

Additional observations from a re-analysis of the deposited data

How the results depend on the processing

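All 12 changes of an isoform difference kept their direction on the common scale. The other alternatives could not turn them. Median centring cancels within an array, and each gene of a pair had 1 probe set. The groups did not overlap in any pair, so leaving out an array could change the size alone. The ranges without 1 array were 3.92 to 4.03, 5.34 to 5.45 and 1.41 to 1.43 for Cox8b minus Cox8a at day 2, day 5 and between them. They were 3.71 to 3.74, 4.76 to 4.79 and 1.04 to 1.05 for Cox6a2 minus Cox6a1, and 2.62 to 2.70, 4.15 to 4.24 and 1.51 to 1.56 for Cox7a1 minus Cox7a2. Among the 27 changes of single members, 5 turned direction. From day 2 to day 5, Cox6a2 was 0.50 on the common scale and 0.19 with median centring, Cox4i2 0.14 and 0.043, Cox7a2 0.29 on the common scale (with median centring -0.071, not passing) and Cox7a2l 0.34. At day 5 against cycling myoblasts Cox4i2 was 0.31 on the common scale and 0.20 with median centring. The cause was not tested.

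Counts that moved by over 1.5 times did so mostly with the scale. On the common scale limma called 91.4%, 94.5% and 90.5% of all genes in either direction at day 2, at day 5 and between them. The median log2 fold change over all genes on that scale was 0.087, 0.17 and 0.055. With median centring it was 0.062, -0.021 and -0.13. Shares of all genes by direction were not taken on 1 scale alone, so the counts below cannot be set against them. The counts show how far calls depend on the processing and are not read as a result about these genes. On the common scale alone, 5 members rose at day 5, and 7 were called higher from day 2 to day 5, against 1 on both scales (5 with median centring, 3 in fits of 6 arrays, and 1 to 3 when leaving out each array, with 3 without replicate 1 of the cycling myoblasts). With median centring 1 member, Cox8a, fell from day 2 to day 5. Of the other nuclear subunits, 1 rose at day 2 and 4 at day 5 on the common scale, and 1 at day 5 with median centring. From day 2 to day 5, 6 were called higher on the common scale, and 2 higher and 1 lower with median centring. Of the assembly factors, on the common scale 4 rose at day 2, 10 rose and 24 were called higher at day 5, and 17 were called higher from day 2 to day 5. With median centring 3 were called lower at day 2, 3 rose and 9 were called lower at day 5, and 6 were called higher and 16 lower from day 2 to day 5. Of the 3 genes nearest to Cox6a2 and to Cox7a1, 1 each stayed among the 3 nearest on the common scale. With the replicate number as a block, 3 members rose at day 2, 3 at day 5 and 1 between them, and the block changed no call of a member. The number of arrays limits the precision, and without a measured background low levels such as that of Cox4i2 are not shown to exceed it.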
